A study of Mus musculus with 2 samples.

Results

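The 35 genes described here are transcriptional targets of the tumour suppressor p53 and genes of the mitochondrial pathway of apoptosis. They were taken by symbol from a list of names that holds no measured value, but the list was chosen with earlier results of these data known. All 35 were found among the 55401 genes of the series. The samples were pituitaries of mouse embryos at embryonic day E12.5, 1 library from wild-type animals and 1 from Dyrk2-/- animals, in which the protein kinase gene Dyrk2 is knocked out. The sources used here do not give strain, sex, the construction of the allele or the number of embryos in a library. RNA was sequenced from stranded, polyA-selected libraries, and levels are FPKM, fragments scaled to exon length and to all fragments counted in genes. Values are given with the wild-type library before the knockout library. Because each genotype had 1 library, differences have no replicate check and no p-value, and the 95% intervals cover counting error only.

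p53 is a transcription factor that is held at low activity by the ubiquitin ligase Mdm2 and released by DNA damage or other stress. It then induces genes for cell cycle arrest, DNA repair, metabolic restraint and death. Death through mitochondria is decided within the Bcl-2 family. BH3-only proteins block the survival proteins and activate Bax and Bak1, which open the outer membrane. Released cytochrome c then assembles Apaf1 and Casp9 into the apoptosome. The Dyrk2 protein has been described as a kinase that can phosphorylate p53 after DNA damage, although the title of the series concerns primary cilia, cell identity and vessels. The design allows these transcripts to be compared between the wild-type and knockout libraries. Sex and cell type markers also differed between the libraries, as described below, so an effect of Dyrk2 loss cannot be told apart from these differences. The series has no DNA damage group, so an action of Dyrk2 on p53 after damage was not tested.

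p53 binds DNA as a tetramer, through a pair of 10-base decamers of a degenerate consensus. To show what such elements look like at these genes, promoter sequences from RefSeq (GRCm38, 250 bases before to 50 bases after an annotated start) were searched for the p53 decamer consensus. The consensus is its own reverse complement, so both strands are covered. Promoters were matched by symbol for 27 of the 35 genes. Those without an entry were Ddb2, Perp, Pmaip1, Rrm2b, Tnfrsf10b, Trp53inp1, Xpc and Zmat3. A decamer was present in 8 of the 27 genes (29.6%), and in 9.55% of all 27025 symbols in the table. Counted by promoter, it was present in 9 of 38 windows of the members and in 8.36% of all 32851 windows of 300 bases. The 8 matches follow on the strand of the gene, 5′ to 3′, with the decamer in capitals and up to 25 bases on either side.
Mdm2 (chr10:117710910-117710969, minus strand): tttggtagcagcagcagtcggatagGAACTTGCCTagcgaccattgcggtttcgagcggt
Ccng1 (chr11:40755437-40755496, minus strand): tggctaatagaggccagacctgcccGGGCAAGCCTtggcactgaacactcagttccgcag
Bax (chr7:45467065-45467124, minus strand): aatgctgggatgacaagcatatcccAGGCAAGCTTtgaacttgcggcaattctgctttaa
Aen (chr7:78895912-78895971, plus strand): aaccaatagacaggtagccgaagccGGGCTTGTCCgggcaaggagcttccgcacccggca
Ei24 (chr9:36797310-36797369, minus strand): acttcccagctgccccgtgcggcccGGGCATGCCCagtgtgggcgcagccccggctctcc
Sesn1 (chr10:41887241-41887300, plus strand): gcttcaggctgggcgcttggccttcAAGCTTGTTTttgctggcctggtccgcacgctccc
Polk (chr13:96519384-96519437, minus strand): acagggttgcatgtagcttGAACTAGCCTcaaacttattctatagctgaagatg
Gtse1 (chr15:85859930-85859989, plus strand): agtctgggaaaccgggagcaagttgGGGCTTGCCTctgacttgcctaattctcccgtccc

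No window of a member held 2 decamers within 13 bases of each other, an arrangement present in 0.0731% of all windows. A match is a run of letters and not a measured binding site, and response elements outside these windows were not searched. In expression the 8 genes fell on both sides of equality: 4 had log2 ratios of knockout over wild type above 0 and 4 below, from -0.32 for Sesn1 to 0.27 for Aen. Their median was 0.03, and that of the 16 matched genes without a decamer and above the filter described next was -0.0022.

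The libraries were alike in depth and in most genes. The deposited values correspond to 20046060 and 20115007 counted fragments, so a single fragment is worth 0.0499 and 0.0497 FPKM on 1 kb of exon. Dyrk2, the targeted gene, measured 11.5 and 1.93 FPKM, and so was lower in the library labelled knockout. All 10 markers of Rathke's pouch epithelium, the tissue that forms the anterior lobe, were present in both libraries, led by the pouch factor Pitx1 and the epithelial adhesion gene Epcam. Markers of several other cell types differed more between the libraries. Hormone cell markers summed to 378 and 86.4 FPKM, with 6 of 7 at least 1.5-fold lower in the knockout library. Among the 14000 genes of at least 1 FPKM in either library, 4.56% were that much lower and 2.06% that much higher. Mesenchyme markers summed to 210 and 124 FPKM, and smooth muscle and pericyte markers to 111 and 67.8 FPKM. With 0.5 FPKM added, 4 of 8 mesenchyme markers were at least 1.5-fold lower and 1, Prrx1, was higher, at 0.83 and 1.67 FPKM. Of 6 smooth muscle and pericyte markers, 3 were at least 1.5-fold lower, among them Acta2 at 25.65 and 1.58 FPKM. Notch3, which holds much of that sum, was level at 48.1 and 48.0 FPKM. Erythroid markers summed to 2266 and 1743 FPKM, and neuronal markers to 22.1 and 31.6 FPKM, whereas infundibulum and hypothalamus markers summed to 98.5 and 101 FPKM. The female-specific RNA Xist was at 74.98 and 14.8 FPKM and the Y-linked gene Ddx3y at 5.83 and 14.95 FPKM, so the mixture of sexes differed too and cannot be told apart from genotype. In such bulk samples, fewer cells of a type and less RNA per cell cannot be told apart.

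As a set, p53 targets and apoptosis genes were at nearly the same level in both libraries. Of the 35 genes, 31 reached 1 FPKM in 1 or both libraries, and none of these 31 was 1.5-fold higher or lower when 0.5 FPKM was added to both values. Among all 14000 genes that passed the same filter, 2.06% were at least 1.5-fold higher and 4.56% at least 1.5-fold lower in the knockout library, 6.62% in all. Among the 9037 genes that reached 5 FPKM, the shares were 0.664% and 1.97%, and 25 members were in that range. The median log2 ratio of the 31 was -0.01, with a range from -0.57 (Ddb2) to 0.51 (Ddit4), and the median of all 14000 was -0.02. The median size of the log2 ratio, regardless of sign, was 0.14 for the members and 0.12 for all genes kept. Log2 ratios lay above 0 for 15 members and below 0 for 16, where 45.7% of all genes were above and 53.7% below. The counts of the members are therefore close to what genes in general showed in these 2 libraries.

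Counting error was small enough to resolve modest differences. Kept members were covered by 78 to 4430 fragments in a library. The 95% interval of the plain ratio lay wholly above 1 for 9 members and wholly below 1 for 9, and held 1 for 13. The same intervals lay above 1 for 17.7% and below 1 for 22.3% of all 14000 genes. In the wild-type library the median gene had 935 fragments among the members and 681.5 among all genes kept. More fragments give narrower intervals, but the part of depth in these counts was not tested. The members with intervals above 1 were Ddit4, Zmat3, Aen, Sesn2, Bcl2, Bak1, Ccng1, Ei24 and Apaf1. Those with intervals below 1 were Ddb2, Rrm2b, Sesn1, Xpc, Bbc3, Mdm4, Mdm2, Bax and Bcl2l1.

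**Figure D1:**
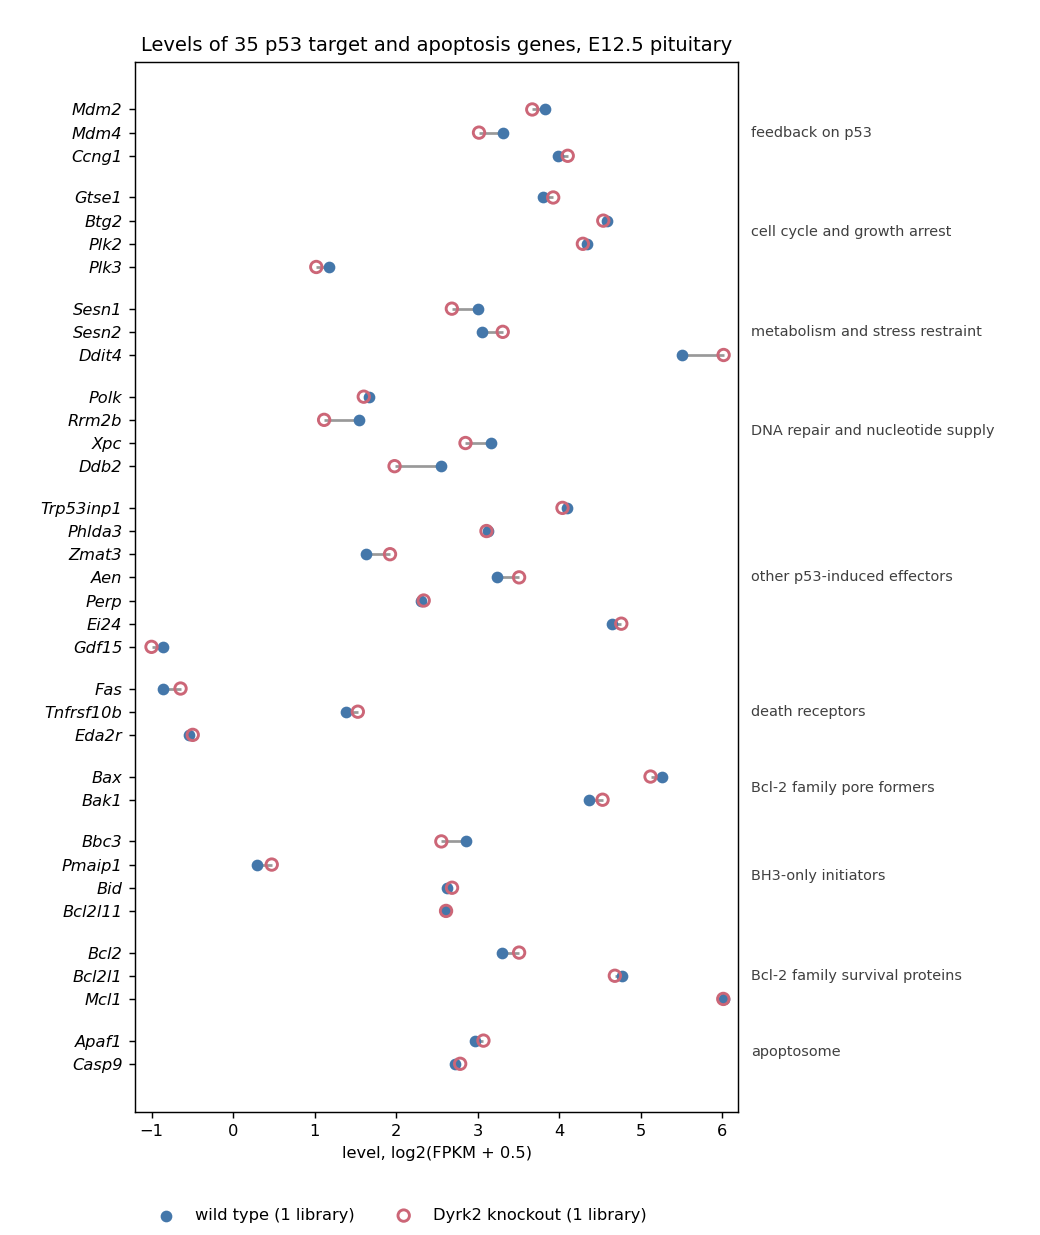
Level of each of the 35 genes as log2(FPKM + 0.5) in the wild-type library (filled) and the Dyrk2 knockout library (open), grouped by role, with a line joining the values of a gene. Most pairs nearly coincide, from Mcl1 at 64.7 and 64.1 FPKM to Eda2r at 0.19 and 0.21 FPKM, and the longest lines belong to Ddb2 and Ddit4.

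The order of the genes by level was kept almost whole. Log2 levels of the 35 members correlated at Pearson's r = 0.99 and their ranks at Spearman's rho = 0.99 between the libraries, a description across genes that share gene length, annotation and processing. The median level of the kept members was 8.49 and 8.13 FPKM, beside 7.56 and 7.38 FPKM for all genes kept. Mcl1 stood highest in the wild-type library, before Ddit4 and Bax, and in the knockout library Ddit4 and Mcl1 stood together above Bax, with overlapping counting intervals of 61.7 to 67.0 and 62.3 to 66.1 FPKM. At the bottom, Gdf15, Fas, Eda2r and Pmaip1 were under 1 FPKM in both libraries.

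Of the 3 members that feed back on p53, Mdm2 and Mdm4 were lower and Ccng1 slightly higher in the knockout library. Mdm2 (chromosome 10, 117688875 to 117710758, minus strand) encodes the ligase that marks p53 for degradation and is itself a p53 target. It measured 13.7 FPKM (95% Poisson interval 12.95 to 14.4) and 12.2 FPKM (11.6 to 12.9), a ratio of 0.896 (0.829 to 0.967). Mdm4, a relative of Mdm2 that masks the activating domain of p53, measured 9.45 and 7.60 FPKM. Its ratio of 0.804 (0.761 to 0.850) was the lowest of this group. Ccng1, a cyclin that brings a phosphatase to Mdm2, lay on the other side at 15.4 and 16.7 FPKM, with a ratio of 1.09 whose interval barely excluded 1 (1.002 to 1.18).

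Trp53, the gene for p53 itself, did not differ beyond counting error. It measured 26.6 and 26.3 FPKM, a ratio of 0.991 (0.933 to 1.05). Protein amount, phosphorylation and activity of p53 are not visible in these data.

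The 4 members that restrain the cell cycle or act in growth arrest did not differ beyond counting error. Btg2, an antiproliferative adaptor of mRNA decay, measured 23.5 and 22.8 FPKM, and Plk2, a polo-like kinase of the stress response, 19.7 and 19.1 FPKM. Plk3, a second kinase of that family, was weak at 1.77 and 1.53 FPKM, from 90 and 78 fragments. Gtse1, a microtubule-binding protein of dividing cells that also restrains p53, measured 13.45 and 14.7 FPKM, a ratio of 1.10 (0.990 to 1.21). The intervals of all 4 held 1. Mitotic genes, with which Gtse1 shares its timing in the cell cycle, had a median log2 ratio of 0.16, with all 12 above 0. The 12 S phase genes had a median of 0.23, also all above 0, where 45.7% of all 14000 genes were above 0. The 0.13 of Gtse1 lay near the mitotic median, and the part of dividing cells in its value was not tested.

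The genes of metabolic restraint held the highest member of the list. Ddit4 (chromosome 10, 59949669 to 59951834, minus strand) encodes an inhibitor of the growth kinase complex mTORC1 that is induced by low oxygen, nutrient shortage and p53. It measured 44.9 FPKM (42.7 to 47.2) and 64.3 FPKM (61.7 to 67.0), from 1580 and 2271 fragments. The ratio was 1.43 (1.34 to 1.53), and 354 of the 14000 genes had a higher log2 ratio. The sestrins, which hold back the same complex, parted. Sesn2 measured 7.78 and 9.41 FPKM, a ratio of 1.21 (1.08 to 1.36), whereas Sesn1 measured 7.52 and 5.93 FPKM, a ratio of 0.789 (0.698 to 0.891). The level of Sesn2 relative to Sesn1 was thus 1.03 and 1.59, in the knockout library 1.53 times as large (1.30 to 1.81, counting error only). This pair, and those of Bak1 with Bax and of Bcl2 with Bcl2l1 below, were chosen after the values were seen.

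Ddit4 and Sesn2 are also induced by the transcription factor Atf4 in the integrated stress response, and Ddit4 by low oxygen. A list of Atf4 itself and its targets outside the members had 9 kept genes. Of these, 6 had log2 ratios above 0, where 45.7% of all 14000 genes did, and the median was 0.25. The counting interval lay above 1 for 5 of the 9 and below 1 for 2, beside the 17.7% and 22.3% of all genes given above. Phgdh, an enzyme of serine synthesis, measured 45.6 and 59.8 FPKM, and Chac1, which degrades glutathione, was past 1.5-fold at 0.46 and 1.06 FPKM. Those below 1 were Ddit3, a mediator of death under this response, at 5.45 and 4.24 FPKM, and Vldlr, a lipoprotein receptor, at 1.74 and 1.22 FPKM. Of 12 kept hypoxia targets, 8 lay above 0 with a median of 0.14, among them Ldha at 119 and 161 FPKM. With 0.5 FPKM added, 6.62% of all 14000 genes were past 1.5-fold either way. The 1 gene of the hypoxia list past it was Adm, which encodes a vasoactive peptide, at 0.34 and 2.64 FPKM. Vegfa measured 17.8 and 14.8 FPKM, and Ndrg1, at 1.72 and 1.14 FPKM, was 1.51-fold lower as a plain ratio (1.22 to 1.87). The part of either response in the level of Ddit4 was not tested.

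Transcripts for DNA repair and nucleotide supply were the group with the lowest median, -0.37, and all 4 of its members were below 0. Among all 14000 genes, 53.7% were below 0. Ddb2 (chromosome 2, 91211572 to 91236982, minus strand) encodes a subunit of the complex that recognises ultraviolet damage. It measured 5.38 FPKM (4.78 to 6.03) and 3.45 FPKM (2.98 to 3.98), from 295 and 190 fragments. As a plain ratio Ddb2 was 1.56-fold lower in the knockout library (1.29 to 1.88), the furthest of the kept members, and 659 of the 14000 genes had a lower log2 ratio. With 0.5 FPKM added it stayed just under 1.5-fold, at a log2 ratio of -0.57. Rrm2b, the p53-inducible small subunit of ribonucleotide reductase, was next at 2.42 and 1.67 FPKM, 1.45-fold lower (1.25 to 1.68). Xpc, which detects distorted DNA at the start of nucleotide excision repair, measured 8.49 and 6.72 FPKM, 1.26-fold lower (1.15 to 1.39). Polk, a polymerase that copies past damaged bases, measured 2.67 and 2.54 FPKM, with an interval that held 1.

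Part of the exon sequence of Ddb2 is shared with a gene on the opposite strand. Exons of Acp2, a lysosomal phosphatase gene, cover 23.8% of the exon bases of Ddb2 in GENCODE, and Acp2 measured 14.7 and 12.8 FPKM, a ratio of 0.873 (0.810 to 0.940). The libraries are stranded, but whether the counting used strand is not given in the sources used here, so fragments of Ddb2 and Acp2 in the shared part cannot be told apart here. Rrm2b shares 8.04% of its exon bases with the antisense gene Gm49085, which was at 0.03 FPKM in both libraries.

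**Figure D2:**
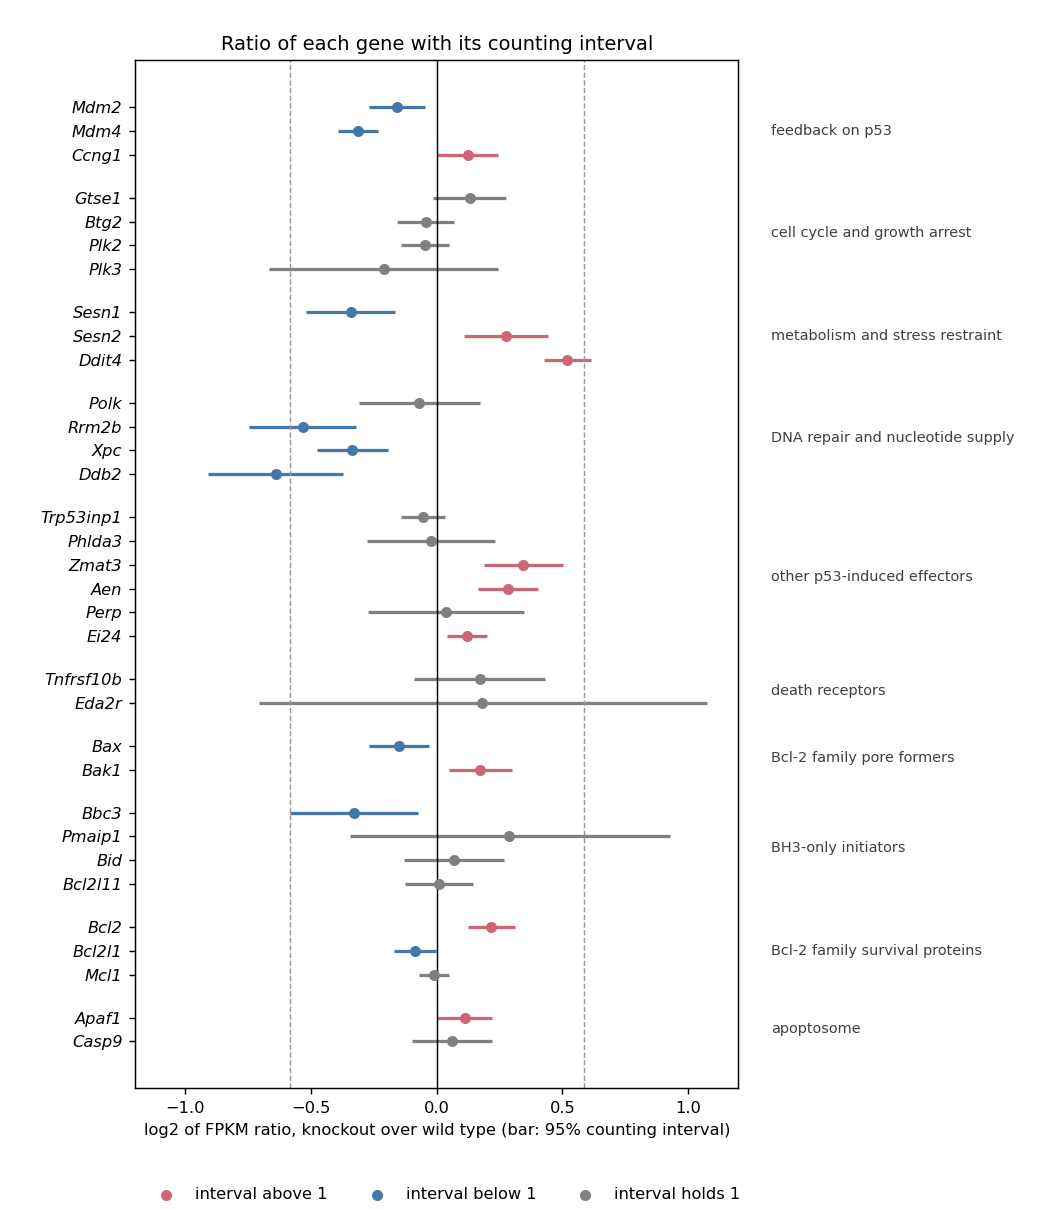
Plain FPKM ratio of knockout over wild type on a log2 axis for 33 of the 35 genes, grouped by role, with bars for the 95% counting interval and dashed lines at 1.5-fold. Gdf15 and Fas, with at most 6 fragments in a library, are left out, and only Ddb2 has its point beyond a dashed line.

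A further group of 7 members holds p53-induced effectors outside the Bcl-2 family and the death receptors. Of its 6 kept genes, 3 had intervals above 1 and none below, beside 17.7% and 22.3% of all 14000 genes. Its median log2 ratio was 0.07, with 4 genes above 0 and 2 below. Zmat3, an RNA-binding zinc finger protein that acts on splicing, measured 2.60 and 3.30 FPKM, a ratio of 1.27 (1.14 to 1.42). Aen, a nuclease that promotes death, measured 8.96 and 10.9 FPKM, a ratio of 1.22 (1.12 to 1.32). Ei24, a membrane protein of the endoplasmic reticulum needed for autophagy, measured 24.5 and 26.7 FPKM, a ratio of 1.09 (1.03 to 1.15).

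The other members of that group had intervals that held 1 or were barely detected. Trp53inp1, a stress protein of the nucleus and autophagosomes, measured 16.6 and 15.97 FPKM, and Phlda3, which competes with the kinase Akt for membrane lipids, 8.26 and 8.13 FPKM. Perp, a desmosomal membrane protein induced by p53 and its relative p63, measured 4.45 and 4.56 FPKM. All 3 intervals held 1. Trp63, the gene for p63 and a marker of stratifying epithelium, was at 0.02 and 0.32 FPKM, from 3 and 54 fragments, a ratio of 17.9 (5.82 to 89.7) at a level under the filter in both libraries. Gdf15, a secreted stress factor, had 2 and 0 fragments, both under the floor of 3 fragments, so no fold is given.

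The 3 members that encode receptors of the tumour necrosis factor family, which can start apoptosis from the cell surface, were expressed weakly. Tnfrsf10b, the receptor for the ligand Tnfsf10, was the 1 member above the filter, at 2.12 and 2.39 FPKM with a ratio of 1.13 (0.940 to 1.35). Fas measured 0.05 and 0.14 FPKM, from 2 and 6 fragments, a ratio of 2.99 with a counting interval of 0.535 to 30.3. Eda2r, an X-linked receptor for ectodysplasin, measured 0.19 and 0.21 FPKM, from 22 and 25 fragments. Differences in Fas and Eda2r were not detectable at this depth.

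The pore-forming proteins of the mitochondrial pathway lay on either side of equality. Bax (chromosome 7, 45461697 to 45466898, minus strand) measured 38.05 FPKM (35.9 to 40.3) and 34.3 FPKM (32.3 to 36.4), a ratio of 0.902 (0.830 to 0.980). Bak1, its functional partner, measured 20.1 FPKM (18.9 to 21.4) and 22.7 FPKM (21.3 to 24.0), a ratio of 1.13 (1.03 to 1.23). Bak1 stood at 0.528 and 0.660 of the Bax level, in the knockout library 1.25 times as large (1.11 to 1.41). Their summed level was 58.15 and 57.0 FPKM. Exons of Ggnbp1 on the opposite strand cover 25.5% of the exon bases of Bak1, and Ggnbp1 was weak, at 0.42 and 0.23 FPKM. Gm45808, on the same strand as Bax and over 12.2% of its exon bases, was listed at 0 in both libraries.

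BH3-only proteins sense damage and activate Bax and Bak1, and 4 members encode them. Bbc3, which encodes Puma, a principal death effector of p53, measured 6.76 FPKM (6.01 to 7.59) and 5.38 FPKM (4.71 to 6.13). Its ratio was 0.796 (0.666 to 0.9498). Bcl2l11, which encodes Bim, was at 5.59 and 5.62 FPKM, and Bid, the link from death receptors to mitochondria, at 5.66 and 5.94 FPKM. Bid shares 17.7% of its exon bases with Bcl2l13 on the opposite strand, which measured 14.1 and 14.9 FPKM. Pmaip1, which encodes Noxa, an antagonist of Mcl1, was under the filter at 0.73 and 0.89 FPKM, from 40 and 49 fragments, and its interval held 1. Among these initiators Bbc3 alone had an interval that excluded 1.

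Survival genes of the Bcl-2 family had the highest summed level of the groups, 101 and 100.2 FPKM. Mcl1, a short-lived survival protein, measured 64.7 FPKM (62.8 to 66.6) and 64.1 FPKM (62.3 to 66.1), a ratio of 0.992 (0.951 to 1.03) from 4430 and 4410 fragments. This was the most deeply covered member, and its counting interval places the difference between these libraries within 5% either way. Bcl2l1, which encodes Bcl-xL, measured 26.8 and 25.2 FPKM, a ratio of 0.942 (0.889 to 0.997), and this interval no longer excluded 1 after scaling by the upper quartile or a trimmed mean. Bcl2, the founding member, was higher at 9.37 and 10.9 FPKM, a ratio of 1.16 (1.09 to 1.24). Relative to Bcl2l1 it stood at 0.350 and 0.432, 1.23 times as large in the knockout library (1.13 to 1.35). Erythroid cells, which rely on Bcl2l1, had lower marker levels in the knockout library, with all 5 kept markers below 0 and a median log2 ratio of -0.37. Of all 14000 genes, 53.7% were below 0. The part of erythroid cells in the level of Bcl2l1 was not tested.

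The apoptosome genes were level to slightly higher. Apaf1, the scaffold that cytochrome c activates, measured 7.32 and 7.91 FPKM, a ratio of 1.08 whose lower bound was 1.002. Casp9, the initiator caspase it recruits, measured 6.13 and 6.40 FPKM, a ratio of 1.04 (0.935 to 1.16). Parp1, a DNA damage sensor that is cleaved during apoptosis, measured 57.1 and 70.35 FPKM.

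**Figure D3:**
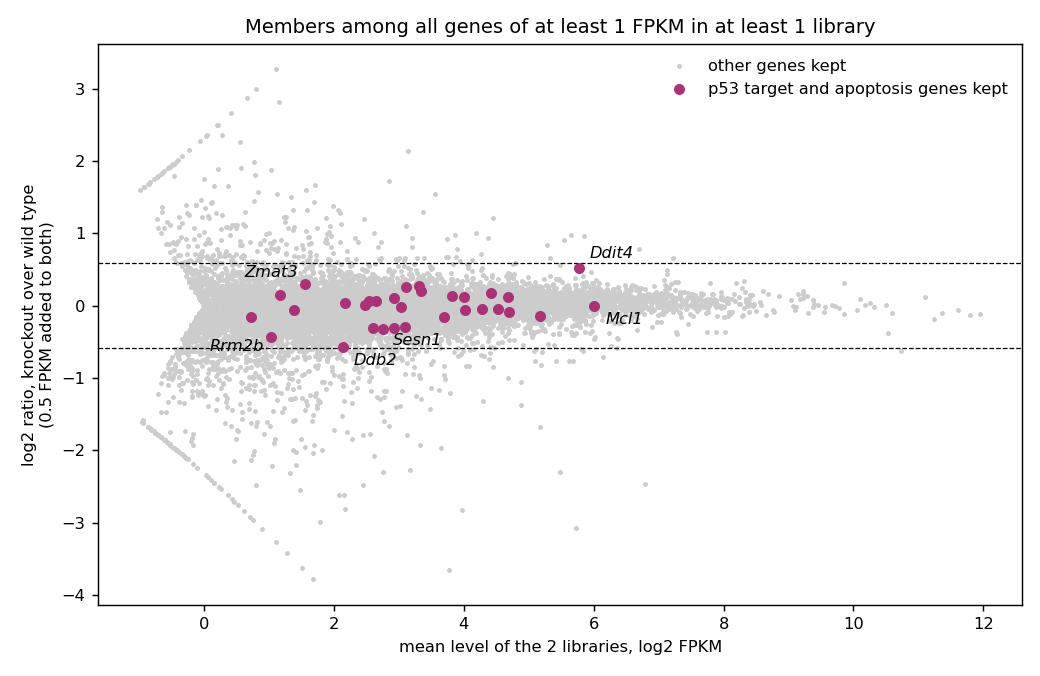
Log2 ratio of knockout over wild type (0.5 FPKM added) against mean level for all 14000 genes kept (grey) and the 31 kept members (purple), with dashed lines at 1.5-fold. All members lie between the lines, from Ddb2 at -0.57 to Ddit4 at 0.51, within the main cloud of genes.

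Further genes of the pathway were also mostly within 1.5-fold, as were genes in general. Of 84 genes in 5 lists, 70 passed the filter, with a median log2 ratio of -0.01. With 0.5 FPKM added, none was 1.5-fold higher and 2 were 1.5-fold lower, beside 2.06% and 4.56% of all 14000 genes. The p53 family and its regulators had 19 kept genes, all within 1.5-fold, with a median of 0.05. Log2 ratios were above 0 for 15 and below 0 for 4, where 45.7% of all 14000 genes were above and 53.7% below. Counting intervals lay above 1 for 5 and below 1 for 1, beside 17.7% and 22.3% of all genes. The most expressed of this list were Usp7, a deubiquitinase of Mdm2 and p53, at 32.7 and 35.05 FPKM, Trp53, and Trp53bp2. Trp53bp2, which steers p53 towards death genes, measured 23.8 and 22.7 FPKM. Hipk2, a p53 kinase of the same wider family as Dyrk2, was the furthest of this list at 10.2 and 13.95 FPKM, a ratio of 1.37 (1.29 to 1.46).

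Among further p53 targets, 12 of 18 kept genes were below 0 and 6 above, and the median was -0.10. Of all 14000 genes, 53.7% were below 0 and 45.7% above. Cdkn1a, which encodes the arrest protein p21 and is the most used readout of p53, measured 2.93 and 2.06 FPKM, from 209 and 147 fragments, a ratio of 0.701 (0.564 to 0.870). It was named for that role, outside the rule for named genes. Rps27l, a ribosomal protein relative, was the most expressed at 60.5 and 63.8 FPKM, followed by Sulf2, a sulfatase, at 36.4 and 31.4 FPKM and Ier5, a stress-induced regulator, at 23.6 and 19.9 FPKM. Pltp, a phospholipid carrier, was the 1 gene of this list past 1.5-fold, at 18.8 and 11.45 FPKM, a ratio of 0.609 (0.548 to 0.675). The share of all 14000 genes past 1.5-fold either way was 6.62%.

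With 0.5 FPKM added, all 18 caspase and execution genes lay within 1.5-fold, as did all but 6.62% of all 14000 genes. The 18 had a median log2 ratio of -0.01. Birc3, an inhibitor of apoptosis, was the lowest at 1.04 and 0.59 FPKM, and as a plain ratio it was 1.77-fold lower (1.27 to 2.48). Besides Parp1, the strongly expressed genes of this list included Birc5, the mitotic protein survivin, at 24.55 and 24.3 FPKM. In the further Bcl-2 family, 5 of 10 genes passed the filter, led by Bmf at 39.7 and 31.0 FPKM, Bad at 13.5 and 14.5 FPKM and the survival gene Bcl2l2 at 11.7 and 8.86 FPKM. Bmf, a BH3-only gene, was expressed above all 4 BH3-only members, and its ratio was 0.782 (0.747 to 0.819). Of 10 kept genes of death receptor signalling, Ngfr, the neurotrophin receptor of neural crest and Schwann cell precursors, was the 1 past 1.5-fold, at 6.88 and 2.73 FPKM, and the list had a median of -0.16. Its most expressed genes were Ltbr at 22.4 and 20.6 FPKM, Tnfrsf1a, a receptor for tumour necrosis factor, at 20.8 and 20.95 FPKM, and the adaptor Traf2 at 6.94 and 6.99 FPKM.

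Several members are also induced when tissue is handled, as immediate early genes, among them Btg2, Plk2, Plk3 and Mcl1. The 8 kept immediate early genes had a median log2 ratio of -0.11, with 5 below 0 and none past 1.5-fold with 0.5 FPKM added. Of all 14000 genes, 53.7% were below 0 and 6.62% past 1.5-fold either way. The summed level of all 10 listed genes was 81.1 and 72.6 FPKM. Fos, under the filter in both libraries, was past 1.5-fold higher, at 0.21 and 0.59 FPKM from 10 and 28 fragments. Its plain ratio was 2.79 (1.32 to 6.44). Nr4a1, at 1.48 and 2.30 FPKM, was past 1.5-fold as a plain ratio of 1.55 (1.21 to 2.01). Ier2 was the most expressed at 44.6 and 39.1 FPKM, and Jun followed at 19.7 and 16.4 FPKM.

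**Figure D4:**
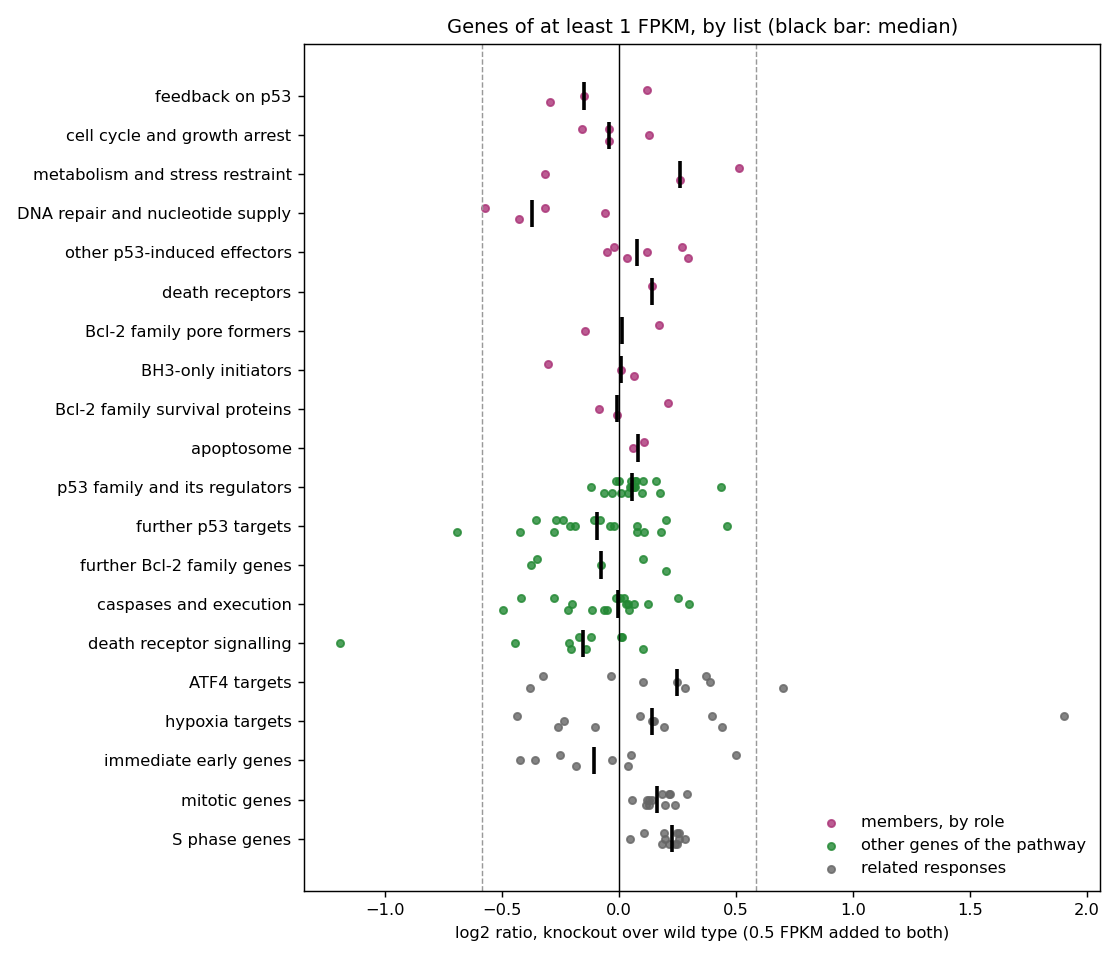
Log2 ratio of knockout over wild type (0.5 FPKM added) for every kept gene of the members by role (purple), of the other pathway lists (green) and of related responses (grey), with the median of each list as a black bar and dashed lines at 1.5-fold. The DNA repair members have the lowest median of the purple groups, -0.37, the metabolic members the highest, 0.26, and Ngfr and Pltp are the 2 green genes beyond the lower line.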

How the data were processed

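Per the file headers, each library's table, as the authors deposited it, pairs a gene identifier with its summed exon length and its FPKM (2 decimals). The submitters' processing notes name cutadapt 1.9.1, HISAT2 2.0.1 and GRCm38. The sources used here do not name the counting tool, its strand setting or the annotation. Symbols and coordinates came from GENCODE M21 (GRCm38), in which 55141 of 55401 identifiers matched. The deposited exon lengths of the 35 members equal those of M21. Where identifiers shared a symbol, the most expressed was used.

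FPKM times exon length increases by whole fragments. With the totals recovered from this, 1512 of 1512 and 1372 of 1372 values checked (at most 100 fragments) were within 0.1 of a whole number. From the fragments came exact 95% Poisson intervals of levels, exact Clopper-Pearson intervals of ratios and, for the relation between 2 genes, intervals from the log of the ratio. No count model was run. Genes that reached 1 FPKM in either library were kept, and log2 ratios were taken with 0.5 FPKM added, which understates changes of weak genes. Counts of genes past 1.5-fold use these log2 ratios, while ratios printed for a gene are plain. Other additions, filters and scalings were run as alternatives. The steps were tested on simulated data. Python 3.11.15 and scipy 1.17.1 were used.

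All members are described. Other pathway genes were named if past 1.5-fold or among the 3 most expressed of their list, and genes of related responses likewise with the 2 most expressed, leaving out some that no result needed. A gene that this rule names is not reported here. Cdkn1a, Hipk2, Birc3, Ddit3, Vldlr, Ndrg1, Nr4a1, Vegfa and the overlapping genes were named after their values were seen. Members and lists were chosen with earlier results of these data known.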

Additional observations from a re-analysis of the deposited data

How the results depend on the processing

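No paired analysis was possible because each genotype had a single library. Of the results on the set, 1 moved: the count of members at least 1.5-fold lower was 0 as reported and 1, Ddb2, with 0.1 FPKM added or with a plain ratio (1 gene in each case). The count of higher members was 0 under all 9 alternatives. Scaling by the upper quartile, a trimmed mean or the total without the 100 most abundant genes multiplied the knockout library by 0.999 to 1.01, and the intervals below 1 then numbered 8 or 9. With a filter of 5 FPKM 25 members were kept, with 8 intervals above and 8 below 1. The median log2 ratio of the members ran from -0.013 to 0.0071, and the sign of so small a value carries no direction. Of 31 kept members, only Mcl1 changed sign under the other additions and scalings run. Among all genes, 1.97% were 1.5-fold lower with a filter of 5 FPKM, against 4.56% as reported, so the background itself depends on weak genes. The plain ratio and a minimum exon length of 200 bases were added after the data were examined. Members under 1 FPKM are limited by depth.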
